A study of Sus scrofa with 2 samples.

Results

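The matrix metalloproteinases (MMPs), the ADAM and ADAMTS metalloproteases and the tissue inhibitors of metalloproteinases (TIMPs) were followed in porcine follicular granulosa cells with and without an siRNA against SMAD4. Members were the messenger RNA entries of the deposited tables whose symbol begins with MMP and a digit, ADAM and a digit, or ADAMTS, or is TIMP1 to TIMP4. This gave 65 of 34570 entries: 12 secreted MMPs, 7 membrane MMPs, 20 ADAMs, 19 ADAMTS proteases, 5 ADAMTS-like proteins and 2 TIMPs. The rule itself uses symbols and not measured values. The cells came from ovaries of Chinese Erhualian pigs and received either NC-siRNA, the negative control, or SMAD4-siRNA. Each group was 1 library of total RNA made from equal amounts of RNA of 3 individuals. The sources used here do not give the time after transfection, the age of the animals or whether the groups shared animals. A difference between the libraries can therefore be one between animals or transfections. No replicate measures that spread, and no test between the conditions was possible.

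These enzymes are zinc-dependent proteases that remodel the extracellular matrix and release proteins from the cell surface. MMPs degrade collagens, laminin, fibronectin and proteoglycans, and most are made as inactive precursors. ADAMs are membrane-anchored and shed the outer parts of growth factors and receptors, while ADAMTS proteases are secreted and carry thrombospondin repeats that hold them in the matrix. TIMPs bind the active site of these enzymes, with TIMP3 having the widest reach over ADAMs and ADAMTS proteases. In the ovary, such proteolysis takes part in follicle growth, in rupture of the follicle wall at ovulation and in remodelling of the corpus luteum. SMAD4 is the common partner of the receptor-activated SMADs and carries TGF-beta, activin and BMP signals to the nucleus.

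Values are RPKM (reads per kilobase of transcript) scaled by each library's upper quartile, so levels can be compared between genes per length. Pairs of values or reads are given with control siRNA first. Whole reads were recovered from the values as the smallest whole numbers possible, 17680952 and 17394711. SMAD4 stood at 85.0 and 47.9, a ratio of 0.563 with a 95% counting interval of 0.497 to 0.639. The library labelled SMAD4 siRNA thus still held 56.3% of the control value. Every interval below is of this kind: an exact Clopper-Pearson interval of the ratio of values, SMAD4 siRNA over control. It covers counting error at most, since each group has 1 library. These reads carry no molecular identifiers and are not independent molecules, so the interval can be too narrow. The recovered reads are also lower bounds, so for some genes the read count can be too low and the interval too wide. ADAMTS18 and ADAM17, for example, were recovered at transcript lengths of only 355 and 561 bases. Rescaling the libraries to the same sum adds 0.12 to every log2 ratio of plain values, and among measured members it turned the direction of MMP14 alone.

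Most members had somewhat lower values with SMAD4 siRNA, MMP2, MMP9 and ADAMTS9 among them, while the aggrecanases ADAMTS4 and ADAMTS5 were higher. Of the 43 members whose mean value reached 1, here called measured, 29 were below 0 on the log2 scale of value + 1 and 14 above. Among all 16609 genes so measured, 54.5% were below 0. The members' median log2 ratio was -0.24, against -0.05 over all genes, and after rescaling it was -0.12 against 0.07. In bulk RNA, fewer cells of a type and less RNA per cell cannot be told apart.

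Few members differed by 2-fold. On that scale 3 of 43 were lower by at least 2-fold and 2 were higher, or 6.98% and 4.65%, where all genes gave 6.68% and 7.17%. These shares are near the background. The lower ones were MMP9, ADAM11 and ADAMTS16, and the higher ones were MMP1 and ADAMTS12. Only MMP9 among these had at least 100 reads over both libraries. With that minimum 1 member was lower and 0 were higher, against 1.12% and 1.32% of all genes. At 1.5-fold, 9 of the 43 were lower and 4 higher, where all genes gave 13.7% and 13.5%.

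Smaller differences that counting error does not cover were common among the 31 members with at least 100 reads, here called well counted. Of these, 21 were below 0, against 57.9% of the genes with as many reads. The counting interval lay wholly below 1 for 19, or 61.3%, against 32.4% of those 9664 genes. It lay wholly above 1 for 3, or 9.68%, against 17.6%. With the libraries rescaled, 13 were below and 6 above, against 19.6% and 30.8% of all genes with at least 100 reads. Intervals narrow with reads, and members such as TIMP1 and MMP2 hold far more reads than the minimum. At 1.5-fold, 4 of these 31 were lower (MMP9, ADAMTS9, ADAMTSL5 and ADAM19) and 2 were higher (ADAMTS4 and ADAMTS5), where all genes gave 5.69% and 4.39%.

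**Figure D1:**
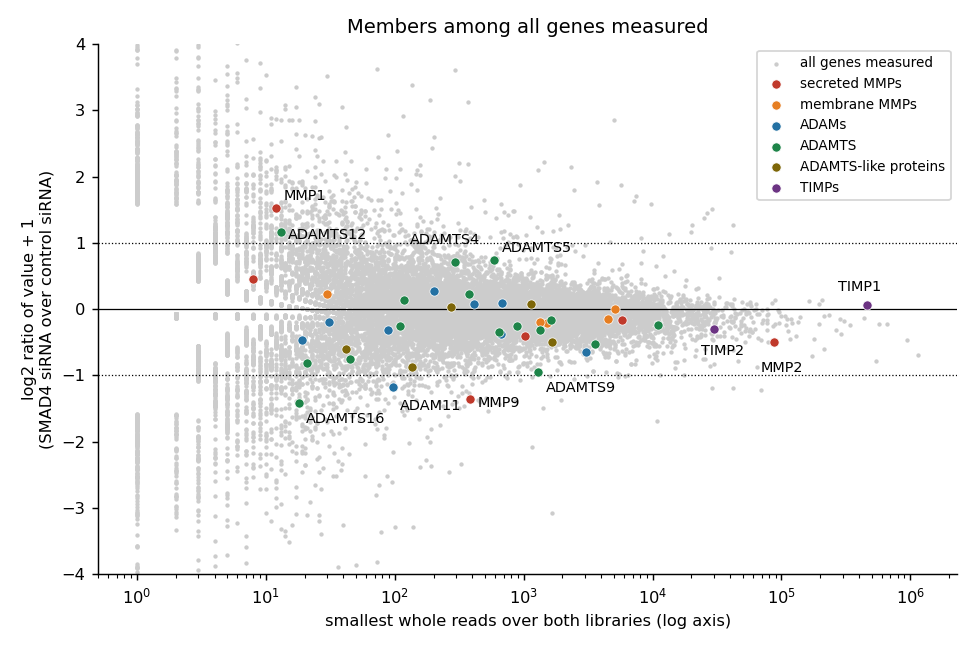
Log2 ratio of value + 1 (vertical axis, SMAD4 siRNA over control siRNA) against the smallest whole reads over both libraries (horizontal log axis) for every gene with a mean value of at least 1; grey points are all genes, coloured points the 43 measured members by role, dotted lines 2-fold. The 2-fold members other than MMP9 have fewer than 100 reads, and 73 genes lie outside the plotted range of log2 ratios.

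Secreted MMPs were lower as far as reads allow a statement. MMP2, gelatinase A, which cleaves type IV collagen and denatured collagens, was the most abundant protease, at 19418 and 13687. Its ratio was 0.705 (0.695 to 0.714), and its rank among messenger RNAs was 98 and 130. MMP9, gelatinase B, was at 131 and 50.5, on 269 and 114 reads. That ratio of 0.385 (0.306 to 0.481) was the lowest of any member with at least 100 reads. The gelatinases thus differed in level as well as in ratio, and the interval of MMP9 lay wholly below that of MMP2.

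MMP11, stromelysin-3, which furin activates inside the cell, was at 569 and 428, a ratio of 0.752 (0.664 to 0.852). MMP19, a broadly acting secreted MMP, was the second most abundant of the group at 1435 and 1281, a ratio of 0.893 (0.848 to 0.940). All 4 well-counted secreted MMPs therefore had an interval wholly below 1, and 3 of them with the libraries rescaled. The shares over all genes with at least 100 reads were 32.4% and 19.6%. The rescaled interval of MMP19 (0.920 to 1.02) holds 1. The group's median log2 ratio was -0.29 over 6 measured members and -0.46 over those 4. The remaining measured ones were the interstitial collagenase MMP1, on 2 and 10 reads, and the macrophage elastase MMP12, on 3 and 5 reads. MMP1 went from 1.13 to 5.11, a ratio of 4.54 with an interval of 0.968 to 42.6 that holds 1, and MMP12 from 2.41 to 3.64. After rescaling the interval of MMP1 (1.05 to 46.3) lay wholly above 1, still on 2 and 10 reads. MMP21 had 0 reads and 1 read.

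Membrane MMPs lay closer to 1. MMP14, or MT1-MMP, which cleaves fibrillar collagen at the cell surface and activates the precursor of MMP2, was at 742 and 739. Its ratio of 0.996 (0.942 to 1.05) holds 1, and after rescaling its log2 ratio was 0.11. MMP15 (MT2-MMP) was at 406 and 351, a ratio of 0.865 (0.781 to 0.958), and MMP17 (MT4-MMP, held by a lipid anchor) at 164 and 144, a ratio of 0.876 (0.786 to 0.977). MMP23B, which is anchored by its own signal segment and released by cleavage, was the most abundant of them at 1838 and 1649, a ratio of 0.897 (0.846 to 0.951). MMP16 (MT3-MMP) was at 10.5 and 12.5 on 30 reads in all, and its interval of 0.543 to 2.66 holds 1. The median log2 ratio of these 5 was -0.16, and -0.04 after rescaling. The intervals of MMP15, MMP17 and MMP23B left 1 out as deposited and held 1 after rescaling. MMP2 therefore stood at 0.705 while MMP14 stood at 0.996, with intervals that do not overlap.

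**Figure D2:**
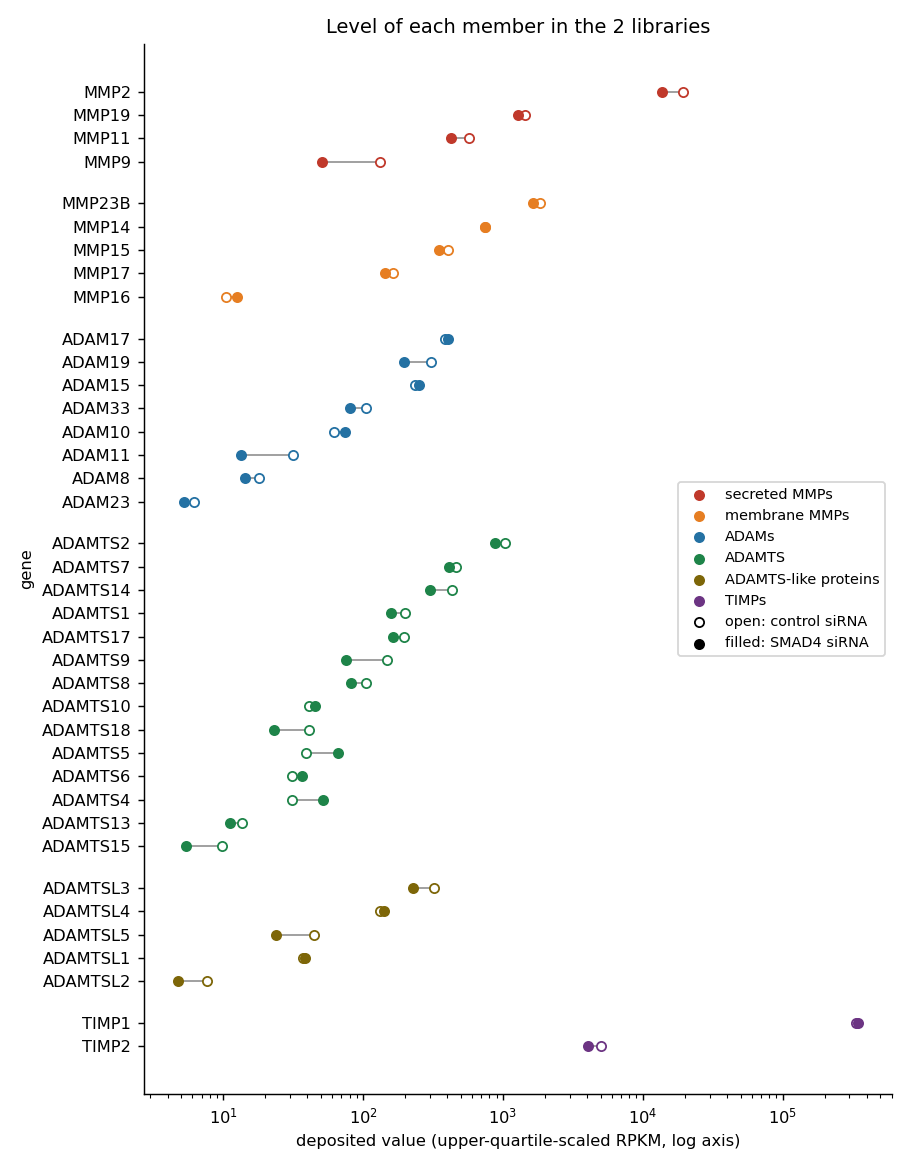
Deposited value (horizontal log axis, upper-quartile-scaled RPKM) of the 38 members with at least 20 reads, in the control siRNA library (open) and the SMAD4 siRNA library (filled), 1 point per library, ordered by role. TIMP1 is highest at 334365 and 347683, MMP2 follows at 19418 and 13687, and of the ADAM and ADAMTS members shown only ADAMTS2 lies above MMP14 (742 and 739).

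Of the 5 well-counted ADAMs that the naming rule takes, 2 were below 0 and 3 above. ADAM17, which sheds TNF and EGF-like growth factors and in the follicle takes part in the ovulatory EGF receptor signal, was at 383 and 402. Its ratio was 1.05 (0.862 to 1.28). ADAM10, the Notch and cadherin sheddase, was at 61.5 and 74.6, a ratio of 1.21 (0.910 to 1.63), and ADAM15, a disintegrin that binds integrins, at 234 and 250.5, a ratio of 1.07 (0.916 to 1.25). All 3 intervals hold 1. For ADAM17 and ADAM10 the reference table places another gene inside the same span (IAH1, and an ADAM10-spanned pseudogene at 20808 in the control library), and how reads of overlapping genes were counted is not known, so these values are uncertain.

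ADAM19 and ADAM33 differed from these. ADAM19, meltrin beta, which cleaves neuregulins, was at 306 and 195, on 1788 and 1259 reads, a ratio of 0.639 (0.595 to 0.688). ADAM33, a protease of mesenchymal cells, was at 105 and 81.0, a ratio of 0.770 (0.659 to 0.899). ADAM8, known from leukocytes, was at 18.1 and 14.3, and its interval of 0.508 to 1.23 holds 1. Over the 5 catalytic ADAMs with at least 100 reads the median log2 ratio was 0.07, whereas over all 9 measured ADAMs it was -0.32. Neither median holds ADAM12 and ADAM9, which the naming rule does not take. Both have more than 100 reads, with log2 ratios of -0.79 and -0.37.

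ADAMs without a working catalytic site were rare. ADAM11, a cell adhesion member best known from neurons, was at 31.4 and 13.4 on 66 and 31 reads. Its ratio of 0.427 (0.269 to 0.663) leaves 1 out. ADAM23, of the same adhesion group, was at 6.20 and 5.28 on 31 reads in all, with an interval of 0.392 to 1.84. ADAM22, also of that group, had 12 reads. The catalytic ADAM28 had 19.

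Relatives that the naming rule does not take were lower. ADAM12, meltrin alpha, is listed under a numbered entry and was named from the RefSeq table of assembly Sscrofa11.1. It was at 1298 and 749 on 9161 and 5824 reads, a ratio of 0.577 (0.559 to 0.597). That level is above that of every ADAM that the rule takes. ADAM9, spelled with a hyphen in the tables, was at 287 and 221, a ratio of 0.771 (0.687 to 0.864). ADAMDEC1, a secreted ADAM-like protease, was at 346 and 213, a ratio of 0.616 (0.523 to 0.725).

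ADAMTS proteases that cleave proteoglycans went both ways. ADAMTS1, the versican-cleaving enzyme induced by progesterone receptor in ovulating follicles, was at 199 and 159, a ratio of 0.798 (0.715 to 0.890). ADAMTS9, another versicanase, was at 147 and 76.0 on 829 and 471 reads, and its ratio of 0.516 (0.460 to 0.578) was the lowest among well-counted ADAMTS members. ADAMTS8 was at 105 and 82.3, a ratio of 0.784 (0.670 to 0.919). ADAMTS15 was at 9.84 and 5.43 on 45 reads in all, with an interval of 0.283 to 1.04.

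The aggrecanases ADAMTS4 and ADAMTS5 were on the other side. ADAMTS4 was at 31.2 and 51.4, from 104 and 189 reads, and its ratio was 1.65 (1.29 to 2.12). ADAMTS5 was at 39.0 and 65.8, from 208 and 386 reads, and its ratio was 1.69 (1.42 to 2.005). Besides TIMP1 they were the only members whose interval lay wholly above 1 as deposited. Their intervals do not overlap those of ADAMTS1, ADAMTS8 or ADAMTS9. In the control library ADAMTS1 stood above ADAMTS9, ADAMTS8, ADAMTS5 and ADAMTS4 in that order, and with SMAD4 siRNA ADAMTS5 (65.8) came close to ADAMTS9 (76.0). ADAMTS20 had 5 reads.

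The procollagen peptidases, which trim the amino-terminal propeptide of fibrillar collagens, were lower. ADAMTS2, the most abundant ADAMTS, was at 1038 and 880 on 5699 and 5318 reads, a ratio of 0.847 (0.816 to 0.880). ADAMTS14 was at 430 and 299 on 2033 and 1555 reads, a ratio of 0.695 (0.650 to 0.742). The interval of ADAMTS14 lay wholly below that of ADAMTS2. ADAMTS3, the other enzyme of this group, had 3 reads.

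Among the other ADAMTS proteases, the most abundant were slightly lower, and the largest ratios in either direction belonged to members with few reads. ADAMTS7, which cleaves cartilage oligomeric matrix protein, was at 459 and 411, a ratio of 0.895 (0.811 to 0.988), with TBC1D2B overlapping it in the reference table. ADAMTS17, linked to fibrillin microfibrils, was at 195 and 163, a ratio of 0.835 (0.731 to 0.955). After rescaling the intervals of ADAMTS7 and ADAMTS17 held 1. Relatives of ADAMTS17 on the fibrillin side, ADAMTS10 (41.4 and 45.4) and ADAMTS6 (31.2 and 36.5), had ratios of 1.10 and 1.17. Their intervals hold 1 as deposited, and after rescaling that of ADAMTS6 (1.03 to 1.57) lay wholly above 1. ADAMTS13, the protease of von Willebrand factor, whose gene overlaps CACFD1 in the reference table, was at 13.6 and 11.3, and ADAMTS18 at 41.1 and 23.0 on 21 reads in all. Both intervals hold 1. ADAMTS16 was at 3.27 and 0.594 on 15 and 3 reads, a ratio of 0.182 (0.0337 to 0.642), and ADAMTS12 at 1.54 and 4.66 on 3 and 10 reads.

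ADAMTS-like proteins have the thrombospondin repeats but no protease domain, and several bind fibrillin microfibrils. ADAMTSL3 was at 320 and 226 on 931 and 724 reads, a ratio of 0.706 (0.640 to 0.779). ADAMTSL5 was at 44.9 and 24.0 on 85 and 50 reads, a ratio of 0.534 (0.369 to 0.766). ADAMTSL4, a fibrillin-binding member, was at 133 and 141, and ADAMTSL1 at 37.5 and 38.3, with ratios of 1.06 and 1.02. Their intervals hold 1 as deposited, and after rescaling that of ADAMTSL4 (1.02 to 1.29) lay wholly above 1. ADAMTSL2 was at 7.68 and 4.74 on 42 reads in all. Thus 2 of 5 had an interval wholly below 1, as deposited and after rescaling, and 3 did not. The shares over all genes measured were 21.5% and 13.4%.

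**Figure D3:**
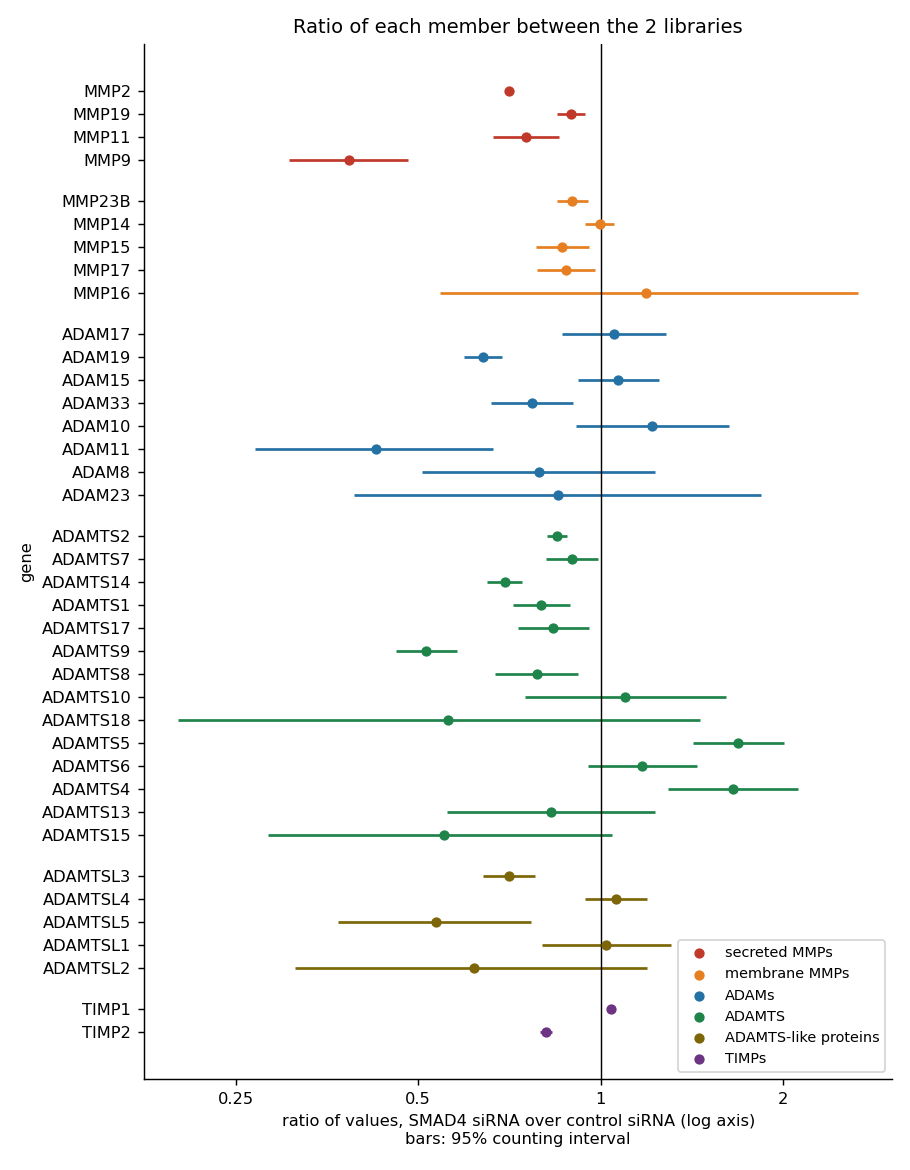
Ratio of values (horizontal log axis, SMAD4 siRNA over control siRNA) with its 95% counting interval (bars) for the 38 members with at least 20 reads, coloured and ordered by role; 1 library per group, so the bars hold no spread between animals. ADAMTS4 (1.65) and ADAMTS5 (1.69) stand on the right, MMP9 (0.385), ADAM11 (0.427) and ADAMTS9 (0.516) on the left.

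The TIMPs differed in direction. TIMP1, which inhibits most MMPs and also acts through CD63, was at 334365 and 347683, on 213071 and 243962 reads. Its ratio was 1.04 (1.03 to 1.05), and it ranked 3 and 2 among messenger RNAs. It alone took 1.21% and 1.40% of the recovered reads of the libraries, and 70.1% and 76.2% of the recovered reads of all members. Recovered reads are lower bounds that can fall short by a different factor in each gene, so these shares are approximate. TIMP2, which inhibits MMPs and forms the bridge by which MMP14 activates pro-MMP2, was at 5008 and 4073, a ratio of 0.813 (0.795 to 0.832). The level of TIMP1 was 66.8 times that of TIMP2 with control siRNA and 85.4 times with SMAD4 siRNA.

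TIMP3, spelled with a hyphen in the tables and so outside the rule, was far lower. It was at 116 and 67.4 on 476 and 305 reads, a ratio of 0.582 (0.502 to 0.673). The level of TIMP2 was 43.2 times and 60.4 times that of TIMP3. TIMP4, also hyphenated, is listed at 0 in both libraries. The most abundant inhibitor was therefore slightly higher and the other measured ones lower, which gives no shared direction for the inhibitors.

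Set against the proteases, the summed inhibitor level was higher, and TIMP1 made up nearly all of it. The summed value of TIMP1 and TIMP2 was 339373 and 351756. Secreted proteases (secreted MMPs and ADAMTS) summed to 24344 and 17772, a ratio of sums of 0.730. Membrane proteases (membrane MMPs and catalytic ADAMs) summed to 4273 and 3916, a ratio of sums of 0.916. That sum leaves out ADAM12 (1298 and 749) and ADAM9 (287 and 221), which the naming rule does not take. Their ratios of 0.577 and 0.771 both lie below 0.916. The inhibitor sum was thus 13.9 times the secreted sum with control siRNA and 19.8 times with SMAD4 siRNA. Against membrane proteases it was 79.4 and 89.8 times, and counting ADAM12 and ADAM9 would lower both of these multiples. The sums take no account of which TIMP inhibits which protease.

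Single genes set these sums. MMP2 made up 79.8% and 77.0% of the secreted sum, and TIMP1 98.5% and 98.8% of the inhibitor sum. With TIMP1 and MMP2 left out, TIMP2 was 1.02 times the remaining secreted proteases with control siRNA and 0.997 times with SMAD4 siRNA. With TIMP1 and MMP23B left out, it was 2.06 and 1.80 times the remaining membrane proteases. Among functional pairs, TIMP2 stood at 6.75 and 5.51 times MMP14, and at 0.258 and 0.298 times MMP2. Transcript levels say nothing of active enzyme, since most of these proteases need activation.

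**Figure D4:**
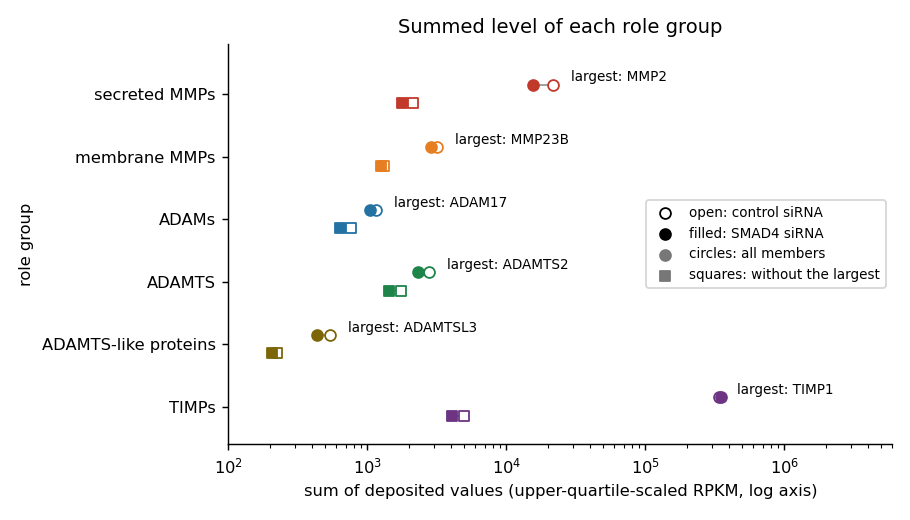
Sum of deposited values (horizontal log axis, upper-quartile-scaled RPKM) of each role group, with all members (circles) and without the member of largest value (squares), in the control siRNA (open) and SMAD4 siRNA (filled) library. The TIMP sum is 339373 and 351756 with TIMP1, and 5008 and 4073 without it.

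Of the 65 members, 17 are listed at 0 in both libraries, or 26.2%, against 32.8% of all 22826 messenger RNA entries. They were the secreted MMP3, MMP7, MMP8, MMP26 and MMP27, the membrane MMP24 and MMP25, and 10 ADAMs (ADAM2, ADAM3A, ADAM5, ADAM7, ADAM18, ADAM20, ADAM21, ADAM29, ADAM30 and ADAM32). Most of these ADAMs are known from testis and sperm. A listed 0 need not mean no transcript, since BSG, a widely expressed surface protein that induces MMPs, is also listed at 0. MMP25 has another entry of that name with 6 and 2 reads, so its reads may be split. A further 10 members had 1 to 19 reads, and 38 had at least 20. All 19 ADAMTS proteases and all 5 ADAMTS-like proteins had reads in at least 1 library.

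Of 18 activators and trafficking partners 16 have an entry, and 13 were measured. As deposited 11 of these were below 0, where 54.5% of all genes measured were below 0. After rescaling 8 were below 0. Their median log2 ratio was -0.22, and -0.10 after rescaling, where the median over all genes was -0.05 and 0.07. The convertase FURIN, which activates MMP11 and membrane MMPs, was at 1637 and 1402, a ratio of 0.857 (0.814 to 0.901), and PCSK6 at a ratio of 0.616 (0.432 to 0.873). The plasminogen activators PLAU and PLAT, whose product plasmin can activate MMPs, had ratios of 0.706 (0.660 to 0.756) and 0.814 (0.791 to 0.838). RHBDF2, or iRhom2, which carries ADAM17 to the surface, was the highest, at 234 and 270, a ratio of 1.15 (1.05 to 1.27). TSPAN14 and TSPAN17, tetraspanins that carry ADAM10, had ratios of 0.847 and 0.859.

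Other inhibitors and clearance receptors had a median log2 ratio of -0.13 over 7 measured of 10, and -0.02 after rescaling. Of the 7, 5 were below 0 and 2 above, where 54.5% of all genes measured were below 0. After rescaling 1 interval of this list lay wholly above 1, against 21.3% of all genes measured. A2M, the protease-trapping alpha-2-macroglobulin, was at 3981 and 2203, a ratio of 0.553 (0.540 to 0.567). LRP1, the receptor that takes up A2M complexes and several of these proteases, was at 3835 and 2710, a ratio of 0.707 (0.695 to 0.719). RECK, a membrane-anchored MMP inhibitor, was at 78.0 and 71.1, with an interval of 0.770 to 1.08 that holds 1. CD63, the TIMP1 partner, had a ratio of 0.920 (0.897 to 0.943), with an interval that holds 1 after rescaling. CST3 was at 37902 and 25146, a ratio of 0.663 (0.650 to 0.678). TFPI2, the only gene of the list with at least 100 reads above 0, was at 880 and 925. Its ratio of 1.05 (0.978 to 1.13) holds 1 as deposited.

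Of 18 measured matrix substrates 14 were below 0 as deposited, against 54.5% of all genes measured, and 13 were below 0 after rescaling. For 13 of them (12 after rescaling) the counting interval left 1 out on the lower side, against 21.5% and 13.4% of all genes. Most of these are genes with many reads, whose intervals are narrow. For 2 substrates (3 after rescaling) the interval lay wholly above 1, against 12.7% and 21.3% of all genes. The median log2 ratio of the 18 was -0.35, and -0.23 after rescaling. The lowest were the leucine-rich proteoglycan LUM at 0.583 (0.471 to 0.720), the microfibril protein FBN1 at 0.588 (0.570 to 0.606) and FN1, or fibronectin, at 0.658 (0.653 to 0.664). Type IV collagen chains COL4A1 and COL4A2, substrates of the gelatinases, had ratios of 0.721 (0.711 to 0.732) and 0.752 (0.736 to 0.768). VCAN, the versican cut by ADAMTS1, had a ratio of 0.906 (0.875 to 0.939), whose interval holds 1 after rescaling. BGN, or biglycan, had a ratio of 1.05 (1.02 to 1.08). COL1A1 was the highest substrate with at least 100 reads, at 13567 and 14344, a ratio of 1.06 (1.01 to 1.11). ACAN, the aggrecan for which ADAMTS4 and ADAMTS5 are named, had 1 read. Of shed surface proteins 8 of 13 measured were below 0 (7 after rescaling), with a median log2 ratio of -0.16 (-0.05 after rescaling). Among those with at least 100 reads, APP and NOTCH2 were lowest at 0.748 (0.734 to 0.762) and 0.752 (0.728 to 0.777), and SDC1 was at 1.02. The 3 that were 2-fold higher, EREG, TGFA and KITLG, had 36, 21 and 7 reads, where 7.17% of all genes measured were 2-fold higher. Their ratios were 3.18 (1.41 to 8.07), 2.91 (1.02 to 10.1) and 2.27 (0.372 to 23.8).

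Transcription factors known to act on protease genes had a median log2 ratio of -0.23 over 9 measured of 14, and -0.11 after rescaling. RUNX2, a known regulator of MMP13, was at 39.8 and 11.9 on 115 and 38 reads, a ratio of 0.300 (0.202 to 0.436), while RUNX1 was at 147 and 180, a ratio of 1.22 whose lower bound is just above 1. The AP-1 subunits FOS, FOSL1 and JUNB had ratios of 0.853, 1.04 and 1.08 with intervals that hold 1 as deposited, and FOSL2 had 0.809 (0.771 to 0.850). In this list 1 interval lay wholly above 1 as deposited and 3 after rescaling, against 12.7% and 21.3% of all genes measured. ETS1 was at 0.816 (0.731 to 0.911) and NFKB1 at 0.763 (0.631 to 0.922), whose interval holds 1 after rescaling.

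**Figure D5:**
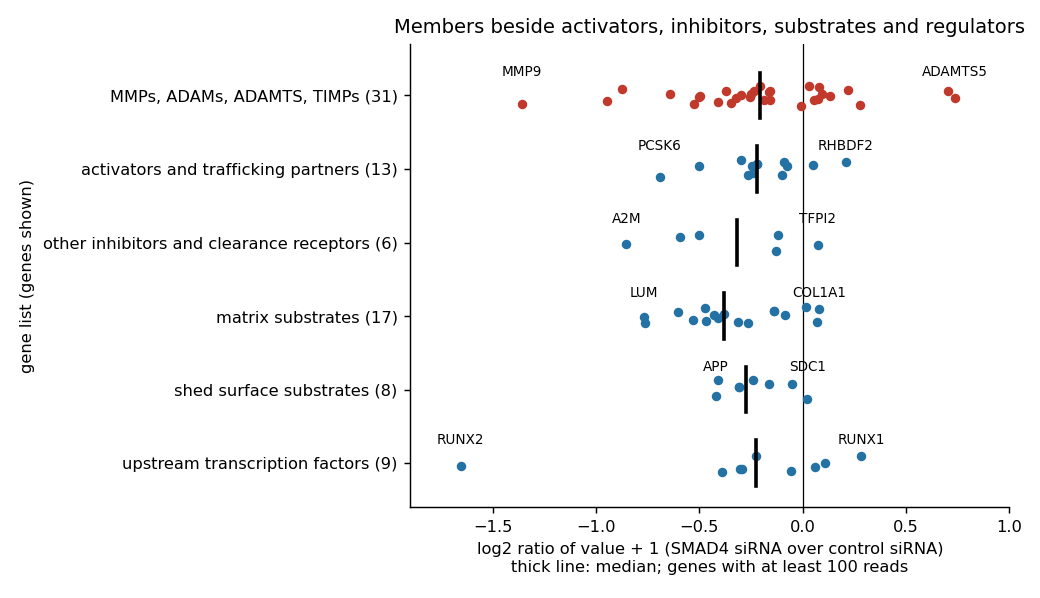
Log2 ratio of value + 1 (horizontal axis, SMAD4 siRNA over control siRNA) for the members and for genes that activate, inhibit, are cut by or regulate them, each point a gene with at least 100 reads (spread vertically only to separate them) and each thick line a median. The medians of all 6 lists lie below 0, between -0.38 and -0.21, beside -0.06 over all genes with at least 100 reads.

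Markers of the cells were looked at beside these results. Of 15 granulosa markers 10 had reads, among them GATA4, WT1, NR5A1 and FOXL2, while CYP19A1, CYP11A1, AMH, INHBB and LHCGR are listed at 0. FSHR, HSD17B1 and AMHR2 had only 16, 25 and 54 reads. The summed level of the granulosa list was 2669 and 2825, in which INHBA rose from 663 to 868, a ratio of 1.31 (1.22 to 1.41). Of the 10 measured granulosa markers 6 were below 0 and 4 above, where 54.5% of all genes measured were below 0. Their median log2 ratio was -0.06. Leukocytes are a known source of MMP9 and ADAM8. Their 9 markers in the tables summed to 604 and 597, nearly all from CD14, with CD3E and MS4A1 at 0 and PTPRC on 3 reads. The 7 endothelial markers summed to 452 and 352, nearly all from PECAM1 (275 and 240) and ERG (167 and 97.2), with TEK and TIE1 at 0. Theca and stroma markers summed to 53408 and 44928, with CYP17A1 and INSL3 at 0, and 4 of 5 measured were lower. Smooth muscle markers summed to 556481 and 347756, nearly all from ACTA2, with MYH11 at 0. The 5 epithelial markers had reads for 1, KRT19, and the 8 oocyte markers for 3, chiefly GDF9 at 73.2 and 56.6. The part of these cells in the protease differences was not tested.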

How the data were processed

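Total RNA of granulosa cells was sequenced on an Ion Torrent Proton, 1 pooled library per group, per the labels. The authors deposited RPKM after upper-quartile scaling, as their tables are named. Aligner, counter, genome build and annotation were not given in the sources used here. Values were used as deposited. Whole reads were recovered with Python 3.11.15 (numpy 2.4.6, scipy 1.17.1, pandas 2.3.3). The commonest ratio between the libraries, 0.908163, was held by 665 of 16239 genes. Divisors of 890 (control) and 980 (SMAD4 siRNA) gave whole reads for all 18428 genes above 0 at some whole length (longest searched 40000 bases, relative tolerance 2e-09). The smallest such reads are lower bounds. These steps were checked on simulated data.

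The log2 ratio used value + 1, which understates changes of low genes, for genes whose mean value reached 1. All entries were processed together. Described by value were SMAD4, members with at least 20 reads, and up to 4 genes at each end of a list. Members, relatives and lists were chosen with earlier results of these data known. FURIN, TSPAN14, TSPAN17, VCAN, ACAN, COL4A1, COL4A2, FOS, EREG, TGFA and KITLG, and the values of MMP1, MMP12, ADAMTS12 and ADAMTS16, lie outside that rule and were chosen after their values were seen. The 1.5-fold rule joined to 100 reads and the interval rule were added after seeing the data. Other alternatives were pseudocounts, centring, rescaling, minimums, thresholds, means and sums without the largest member. Names beyond the tables came from RefSeq (Sscrofa11.1), which named 59 of the 65 members, and from it came gene order and overlaps. Since the build behind the values is unknown, none of its coordinates are printed.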

Additional observations from a re-analysis of the deposited data

How the results depend on the processing

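With 1 library per group, depth and the lack of replicates limit every result. Differences of members under 100 reads were mostly not detectable beyond counting error, judged on reads that are lower bounds. At 2-fold, 3 members were lower and 2 higher. A pseudocount of 5 gave 1 lower and 0 higher, and so did the minimum of 100 reads. The stricter mean of 5 gave 0 higher. A 1.5-fold threshold gave 9 lower and 4 higher, and a 4-fold threshold 0 and 0. The median log2 ratio of ADAMs turned from -0.32 to 0.071 when 100 reads were required, which leaves 5 of 9. The well-counted and lower ADAM12 and ADAM9 are outside the naming rule and not in either median. For secreted MMPs the mean was -0.078 where the median was -0.29, and MMP1, on 12 reads, enters that mean with 1.52. For the TIMPs the median of -0.12 became -0.073 with centring and -0.0025 with rescaling. Without the largest members the TIMP sum over the secreted protease sum was 1.02 (control) and 0.997 (SMAD4 siRNA), and over the membrane protease sum 2.06 and 1.80. SMAD4 and the medians not named here stayed within their counting range under the alternatives run. No paired analysis was possible because each group has 1 library.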

Other observations

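In the gene order of the RefSeq table, 8 MMP genes follow each other with 0 other protein-coding genes between neighbours: MMP7, MMP20, MMP27, MMP8, MMP1, MMP3, MMP12 and MMP13. Few reads were listed for that run. MMP7, MMP27, MMP8 and MMP3 are listed at 0, as is the hyphenated entry of MMP13, while MMP1 had 12 reads and MMP12 had 8. No entry of MMP20 was found under its symbol, a hyphenated spelling or its gene ID. ADAMTS8 and ADAMTS15 are direct neighbours, at ratios of 0.784 and 0.551. ADAMTS1 and ADAMTS5, with 2 genes between them, stood on opposite sides at 0.798 and 1.69. Whether gene order bears on these differences was not tested.

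TIMP1 overlaps SYN1, a synapsin gene, in that table. The SYN1 entry was at 136 and 110 on 741 reads in all, far below TIMP1 at 334365 and 347683. The sources used here do not say how reads of overlapping genes were assigned.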
